A study of Mus musculus with 16 samples.

Results

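Cystine import and glutathione synthesis were examined through 9 genes in dopaminergic neurons of the substantia nigra pars compacta (SNc), in control mice and in mice with a Cre-driven deletion of the mitochondrial Ca2+ uniporter MCU. The genes are Slc7a11, Slc3a2, Gclc, Gclm, Gss, Gsr, Gpx1, Gpx4 and Slc1a1, and they are 9 of the 25006 genes in the count tables. They were chosen by function around Slc7a11, and Slc7a11 itself was selected on its higher normalized count in the MCU-KO mice of these libraries. The genotype difference is therefore given for the 9 genes as a description, and it supports nothing by itself.

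RNA bound to tagged ribosomes was sequenced from 16 mice, with 1 library per mouse. Control mice (n = 8) were DAT-Cre+/- and MCU-KO mice (n = 8) were DAT-Cre+/- MCU fl/fl, so every mouse carried the Cre allele. All were at postnatal day 45 and had received an AAV with a Cre-dependent RiboTag construct in the SNc 30 days before dissection. Cre follows the dopamine transporter gene, and cells that do not express it keep MCU. The controls descended from crosses of the Cre line to C57/BL6 rather than from the floxed line, so that line background and deletion cannot be told apart.

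Counts per library ranged from 14129527 in MCU-KO mouse 8 to 22016362, and the other libraries all had at least 18999107. At these depths 3 counts, taken as the smallest detectable amount, equal 0.136 to 0.212 CPM (counts scaled to the library total), and this limit covers counting error only. The 10 dopaminergic marker genes summed to 13628 to 17181 CPM in control mice and to 12084 to 19411 CPM in MCU-KO mice, and none of them was at 0 in any mouse. Normalized counts of Mcu itself were 454 ± 274.2 in control and 199.9 ± 139.3 in MCU-KO mice (SD, n = 8 each). The log2 fold change of −1.19 (95% interval −2.41 to 0.04) did not pass the threshold, and the groups overlapped, with MCU-KO mouse 2 at 410.1 above the control median of 401. Counts over the whole gene also take reads from outside the deleted part, so they are an incomplete check of the deletion. The authors checked the knockout by qRT-PCR of Mcu on RiboTag RNA. They also reported a smaller mitochondrial Ca2+ response to a glutamate receptor agonist in MCU-KO neurons.

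Slc7a11 encodes the light chain of the cystine/glutamate antiporter, which takes up cystine in exchange for glutamate. Slc3a2 encodes the heavy chain that brings this and several other amino acid transporters to the plasma membrane. Inside the cell cystine is reduced to cysteine, which glutamate-cysteine ligase (Gclc, catalytic; Gclm, modifier) joins to glutamate, and glutathione synthetase (Gss) adds glycine. Glutathione peroxidases (Gpx1, Gpx4) spend glutathione on peroxides and glutathione reductase (Gsr) restores it with NADPH. Neurons are known to draw cysteine mainly through the glutamate transporter EAAC1 (Slc1a1), whereas the antiporter is known best from astrocytes.

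The promoters of the antiporter's chains and of the ligase's modifier subunit are shown because Slc7a11 and Gclm had the highest log2 fold changes of the 9 genes and Slc3a2 is the partner that did not pass the threshold. Each line is the 250 bases before the RefSeq start on GRCm38.p6, read 5′ to 3′ on the strand of the gene. Slc7a11 lies at chr3:50443614-50443863 on the minus strand, Slc3a2 at chr19:8713898-8714147 on the minus strand and Gclm at chr3:122245307-122245556 on the plus strand. Capitals mark matches to TGATGNAA, the composite element that ATF4 dimers are known to bind, in Slc7a11, and to TGACNNNGC, the antioxidant response element that NRF2 is known to bind, in Gclm.
Slc7a11: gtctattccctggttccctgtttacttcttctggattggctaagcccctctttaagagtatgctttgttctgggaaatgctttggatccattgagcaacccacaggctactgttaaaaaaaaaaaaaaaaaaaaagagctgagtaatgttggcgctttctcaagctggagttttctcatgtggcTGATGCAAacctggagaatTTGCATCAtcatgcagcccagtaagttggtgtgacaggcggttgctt
Slc3a2: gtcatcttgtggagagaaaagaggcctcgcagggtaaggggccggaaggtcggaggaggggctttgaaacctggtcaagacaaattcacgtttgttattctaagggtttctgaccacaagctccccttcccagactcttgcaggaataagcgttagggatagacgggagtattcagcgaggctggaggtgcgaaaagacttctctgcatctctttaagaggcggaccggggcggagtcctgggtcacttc
Gclm: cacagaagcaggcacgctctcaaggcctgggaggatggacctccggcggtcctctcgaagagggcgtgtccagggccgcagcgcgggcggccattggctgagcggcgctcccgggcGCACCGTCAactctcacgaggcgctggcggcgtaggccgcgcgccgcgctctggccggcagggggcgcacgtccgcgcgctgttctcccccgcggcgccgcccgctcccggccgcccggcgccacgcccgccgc
Both strands were searched, and no match of one motif overlapped a match of the other. The Slc7a11 window held TGATGNAA at −66 to −59 on the gene's strand and at −47 to −40 on the opposite strand, counted from the start. Of 32851 RefSeq promoters of 300 bases, 3.97% held this motif at least once and 0.07% held 2 or more. The Gclm window held TGACNNNGC at −134 to −126 on the opposite strand, a motif found in 12.4% of all promoters. The Slc3a2 window held neither, which says only that these letters are not in it. That window lies inside the annotated gene (chr19:8706882-8723369), before an internal start. The bases before the gene's outermost start at 8723369 were not searched. Promoters of 7 of the 9 genes were in the table, and among these TGATGNAA occurred only in Slc7a11 and TGACNNNGC only in Gclm. Such matches describe letters and not binding.

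Of the 9 genes, all passed the filter on low counts, and Slc7a11 was the only one whose normalized count rose in MCU-KO mice past the threshold of the edgeR fit (Benjamini-Hochberg adjusted p of 0.05 over all 12390 genes tested). Of all genes tested, 0.178% passed this threshold in either direction and 0.0888% as higher in MCU-KO. DESeq2, the tool the authors used for their calls, called 90 genes, with Gclm among them beside Slc7a11. The groups did not overlap in 1 of the 9, again Slc7a11, and in 0.258% of all genes tested. An unadjusted p under 0.05 was reached by 2 of the 9, Slc7a11 and Gclm, and by 4.41% of all genes tested. Because the genes were chosen with this contrast known, nothing is read from these shares. The log2 fold change was above 0 in 4 and below 0 in 5 of the genes, with a median of −0.02 against 0.0025 over all genes tested, and −0.03 without Slc7a11. For 7 of the 9 the 95% interval lay within a 2-fold change in either direction, and Slc7a11 and Slc1a1 were the exceptions.

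**Figure D1:**
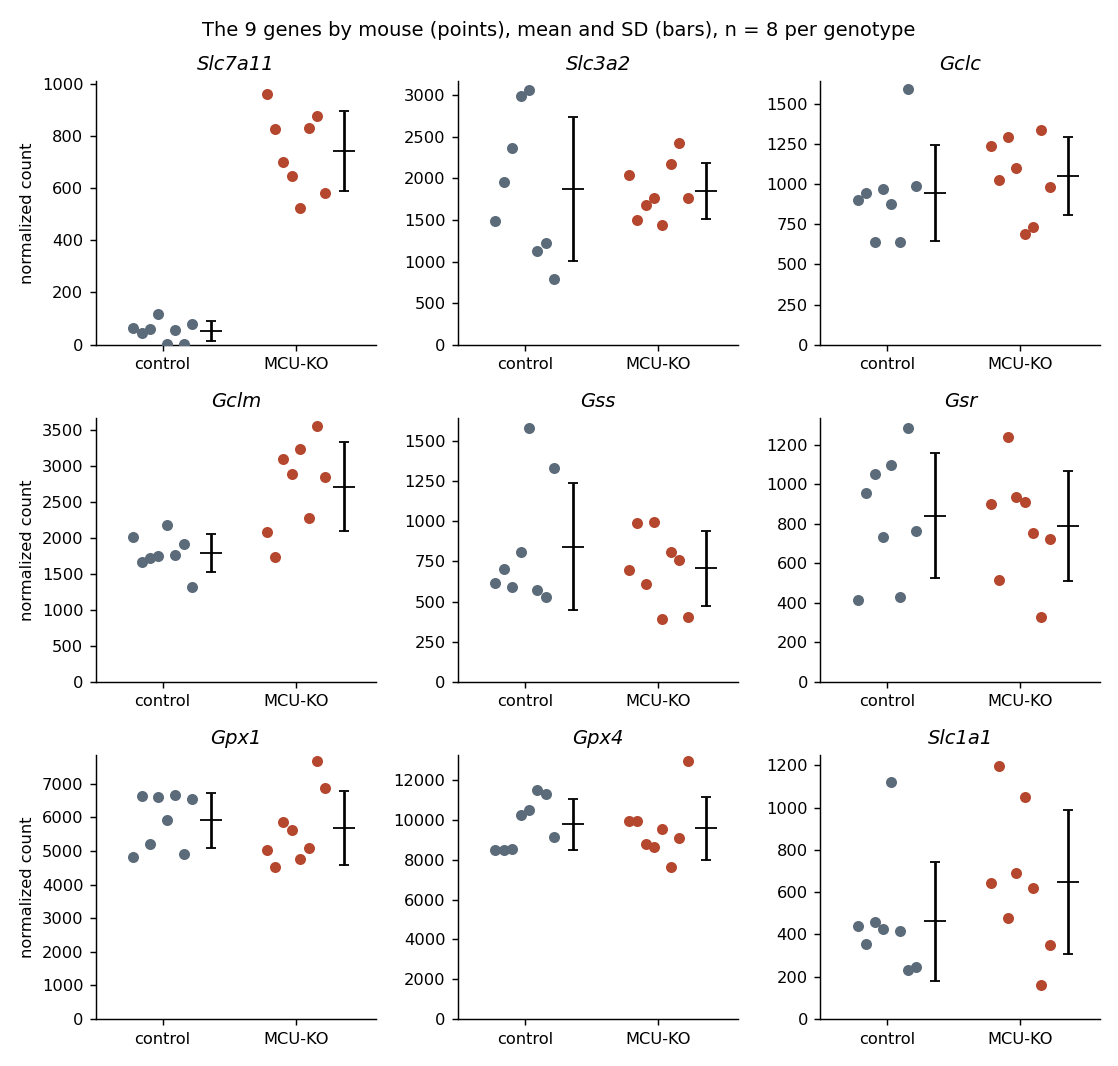
Normalized counts (counts divided by the library's size factor) of the 9 genes on linear axes from 0, with 1 point per mouse and bars for the mean and SD of 8 mice per genotype. Slc7a11 is at 2.77 to 115.8 in control and 522.9 to 962.4 in MCU-KO mice, and the groups overlap in the other 8 genes.

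Slc7a11 (ENSMUSG00000027737) lies on the minus strand of GRCm38 at chr3:49892526-50443614. Its normalized counts in control mice 1 to 8 were 64.0, 44.9, 61.6, 115.8, 2.77, 55.2, 3.08 and 79.6. In MCU-KO mice 1 to 8 they were 962.4, 827.0, 699.3, 646.2, 522.9, 828.9, 874.7 and 581.1. Every MCU-KO mouse stood above every control mouse, and the lowest MCU-KO mouse was mouse 5. The means were 53.4 ± 37.7 and 742.8 ± 153.9 (SD, n = 8 each), and the fitted difference was 3.80 on the log2 scale (SE 0.55, 95% interval 2.65 to 4.95), or 13.9-fold (6.26 to 30.9).

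Control mice 5 and 7 had only 3 counts of Slc7a11 each, at the limit of detection, whereas the other control mice had 51 to 133 counts and the MCU-KO mice 421 to 1001. Without those 2 mice the log2 fold change was 3.40. The coefficient of variation between mice was 70.6% in control and 20.7% in MCU-KO mice. In the 500 genes nearest in level its median was 116% and 35%. Its coefficient was thus below that of most genes of its level in both genotypes (percentiles 9 and 8). Slc7a11 was selected on these same counts, so these percentiles are a description and support nothing. Among all genes tested its mean normalized count stood at percentile 6.89 in control and 58.7 in MCU-KO mice.

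Markers of astrocytes, which are known to express the antiporter, were present in these libraries. Their summed level over 12 genes was 546.3 to 1084 CPM in control and 651.2 to 1321 CPM in MCU-KO mice, 9 of the 12 had a log2 fold change above 0, and none was at 0 in all mice. The mean log2 CPM of the list differed by 0.39 between genotypes (4.98 ± 0.51 and 5.37 ± 0.46, two-sided exact permutation test, p = 0.129, adjusted p = 0.691 over 7 marker lists). The 10 microglial markers had the largest mean difference of the 7 lists, 0.50 (3.22 ± 0.92 and 3.72 ± 0.75, exact permutation p = 0.246, adjusted p = 0.691), and 8 of the 10 had a log2 fold change above 0. Slc7a11 CPM amounted to 0.0204% to 0.662% of the summed astrocyte level in control mice and to 2.59% to 6.77% in MCU-KO mice. With the astrocyte mean as a covariate, the log2 fold change of Slc7a11 was 3.73 (edgeR adjusted p = 0.0022). Oligodendrocyte markers summed to 2899 to 5829 and 3477 to 6889 CPM, and microglial markers to 100.3 to 314 and 108.8 to 446.5 CPM, in control and MCU-KO mice. None of the 7 lists passed the exact test. Their part in the Slc7a11 difference was not tested beyond these values, and in such a pull-down fewer cells of a type and less RNA per cell cannot be told apart.

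Slc3a2, the heavy chain, did not pass the threshold. It lies at chr19:8706882-8723369 on the minus strand. Normalized counts were 1492, 1952, 2369, 2992, 3059, 1124, 1226 and 788 in control mice 1 to 8 and 2043, 1503, 1679, 1767, 1435, 2172, 2428 and 1763 in MCU-KO mice 1 to 8. All MCU-KO mice lay inside the range of the control mice. The means were 1875 ± 863 and 1849 ± 340.5 (SD, n = 8 each), with a log2 fold change of −0.02 (95% interval −0.50 to 0.46). In folds the interval was 0.708 to 1.38. The spread of Slc3a2 between control mice was wide for its level, with a coefficient of variation of 46.0% against a median of 24.0% in the 500 genes nearest in level (99th percentile), and it was 18.4% in MCU-KO mice against 23.0% (27th percentile).

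The log2 ratio of Slc7a11 to Slc3a2, from normalized counts not divided by length, was −5.67 ± 2.16 in control mice (−9.66 to −3.29) and −1.32 ± 0.24 in MCU-KO mice (−1.60 to −0.86, SD, n = 8 each), without overlap. This difference follows from that of Slc7a11 and adds no separate evidence.

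Slc3a2 also pairs with Slc7a5 and Slc7a8, which carry large neutral amino acids, Slc7a6 and Slc7a7, which exchange cationic for neutral amino acids, and Slc7a10, which carries small neutral amino acids. With levels divided by exon length, Slc7a11 made up 0.958% ± 0.632 of the sum of the 6 light chains in control mice (0.0537% to 1.81%). In MCU-KO mice it made up 11.0% ± 3.90 (8.06% to 19.3%, SD, n = 8 each), and the groups did not overlap. This follows from the difference on which Slc7a11 was selected and adds no separate evidence. Slc7a5 and Slc7a8 had the largest mean shares, 38.0% and 30.7% in control and 34.1% and 30.0% in MCU-KO mice. They did not lead in every mouse, as Slc7a6 led with 35.4% in control mouse 1. Slc7a10 led with 52% in MCU-KO mouse 8. Slc7a10 took 15.5% and 19.5% and Slc7a6 14.5% and 5.12%, whereas Slc7a7 had no counts in most mice. The other 5 chains summed to 379.3 ± 71.7 normalized counts per kb in control and 457.8 ± 129 in MCU-KO mice, and their ranges overlapped (247.7 to 450.6 and 262.5 to 677.8). Of these chains 4 were tested one by one and none passed the threshold, Slc7a10 having the smallest p (log2 fold change 0.75, 95% interval −0.44 to 1.93).

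**Figure D2:**
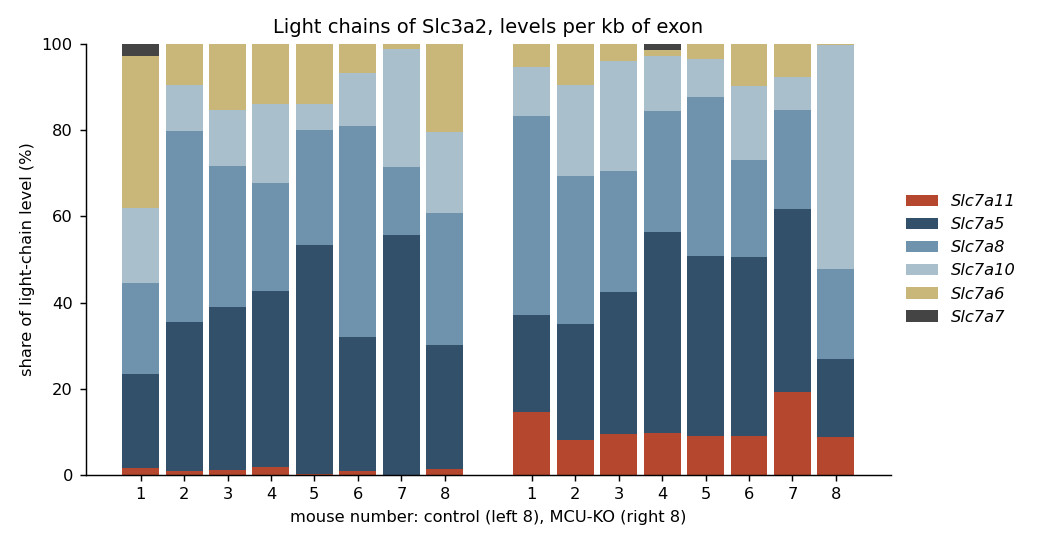
Share of each light chain of Slc3a2 in the sum over 6 light chains (percent, normalized counts per kb of exon), with stacked bars from 0 for each of the 8 mice per genotype. Slc7a11 is at most 1.81% in a control mouse and at least 8.06% in an MCU-KO mouse, while Slc7a5 and Slc7a8 have the largest mean shares in both.

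The modifier subunit of glutamate-cysteine ligase stood second to Slc7a11 among the 9 genes, and its difference did not pass the edgeR threshold. Gclm (chr3:122245557-122270732, plus strand) had normalized counts of 2016, 1663, 1716, 1749, 2178, 1762, 1907 and 1311 in control mice 1 to 8. In MCU-KO mice 1 to 8 they were 2087, 1729, 3089, 2893, 3230, 2268, 3550 and 2845. MCU-KO mice 1 and 2 fell among the control mice, and the remaining 6 were above the highest control mouse. The means were 1788 ± 258.8 and 2712 ± 623 (SD, n = 8 each). The log2 fold change was 0.60 (SE 0.15, 95% interval 0.29 to 0.91), or 1.52-fold, with an edgeR adjusted p = 0.187. DESeq2 gave an adjusted p = 0.0274, and edgeR gave an adjusted p = 0.0441 without MCU-KO mouse 2, so that the call depends on the tool and on that mouse.

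Gclc, the catalytic subunit (chr9:77754535-77794485, plus strand), did not pass the threshold. Its normalized counts in control mice 1 to 8 were 902.6, 946.7, 640.9, 969.0, 876.3, 640.2, 1595 and 986.8, and in MCU-KO mice 1 to 8 they were 1238, 1029, 1296, 1099, 691.7, 735.6, 1337 and 984.1. The groups overlapped, and the highest value belonged to control mouse 7. The log2 fold change was 0.15 (95% interval −0.28 to 0.59), and 0.31 without control mouse 7. The ratio of Gclc to Gclm per kb of exon was 0.898 ± 0.296 in control mice and 0.678 ± 0.218 in MCU-KO mice (SD, n = 8 each), with ranges of 0.607 to 1.40 and 0.358 to 0.994 that overlapped.

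Gss and Gsr, which complete and recycle glutathione, did not pass the threshold either. Gss (chr2:155563181-155592810, minus strand) was at 841.2 ± 395.5 normalized counts in control mice (528.2 to 1583) and 706.1 ± 231.9 in MCU-KO mice (390.9 to 995.2), with a log2 fold change of −0.25 (95% interval −0.82 to 0.32). Its 2 highest values, 1583 and 1331, came from control mice 5 and 8, and the log2 fold change was −0.06 without control mouse 5. Gss shares 395 exon bases with Acss2 on the opposite strand, and 10.3% of its 50-base stretches occur in other genes, so that its counts are less certain. Gsr (chr8:33652523-33698163, plus strand) was at 841.4 ± 314.4 (415.4 to 1287) and 787.6 ± 278.6 (327.8 to 1240), with a log2 fold change of −0.10 (95% interval −0.67 to 0.48), and 0.02 without control mouse 7. The lowest and the highest mouse of Gsr differed by about the same amount within either genotype.

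The peroxidases had the highest levels of the 9 genes, and neither passed the threshold. Gpx1, which reduces hydrogen peroxide in the cytosol and mitochondria (chr9:108338903-108340343, plus strand), was at 5914 ± 817 normalized counts in control mice (4819 to 6655) and 5684 ± 1096 in MCU-KO mice (4534 to 7688). Its log2 fold change was −0.06 (95% interval −0.30 to 0.19). Gpx4, which reduces lipid peroxides (chr10:80047166-80056439, plus strand), was at 9778 ± 1265 (8488 to 11504) and 9581 ± 1575 (7654 to 12989), with a log2 fold change of −0.03 (95% interval −0.24 to 0.18). Of the 50-base stretches of Gpx4 transcripts, 34.7% also occur in other genes, namely Gpx4-ps2 and AC122253.3, so that its counts are less certain.

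Slc1a1 was spread too widely to place. It lies at chr19:28835049-28913960 on the plus strand. Normalized counts were 440.6, 353.1, 458.7, 425.7, 1119, 414.2, 230.2 and 247.4 in control mice 1 to 8 and 644.1, 1195, 476.9, 688.7, 1048, 618.7, 160.0 and 349.2 in MCU-KO mice 1 to 8. Both the lowest and the highest of the 16 mice were MCU-KO mice. The log2 fold change was 0.49 (SE 0.37, 95% interval −0.29 to 1.27). Without control mouse 5 it was 0.82 and without MCU-KO mouse 2 it was 0.30, and neither passed the threshold. An overlapping gene, 4430402I18Rik, shares 31.0% of the 50-base stretches, and the strand setting of the counting is not given in the sources used here.

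**Figure D3:**
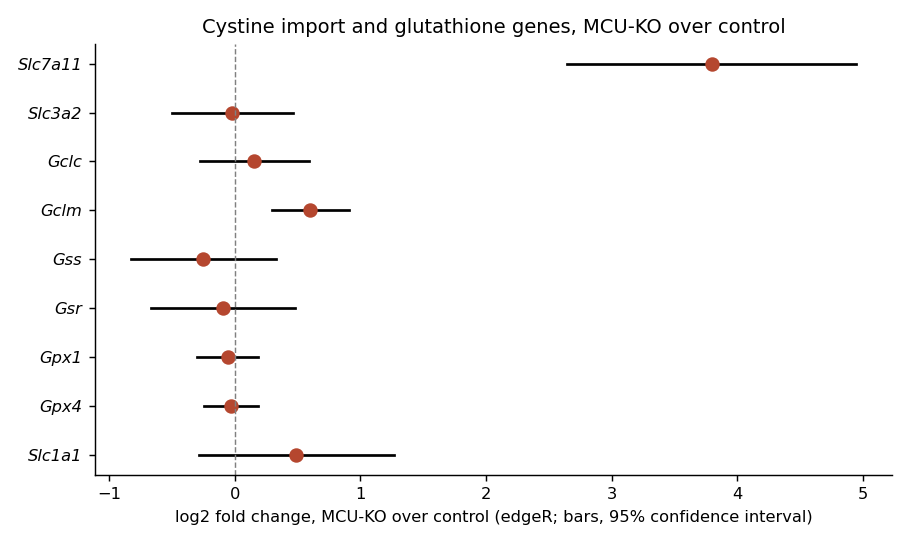
Log2 fold change of the 9 genes, MCU-KO over control, from the edgeR fit over 8 mice per genotype, with points for the estimate, bars for the 95% interval and a line at 0. Slc7a11 is at 3.80 and Gclm at 0.60, and the intervals of the other 7 genes include 0.

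Per length, the antiporter's light chain had the lowest mean level of the 9 genes in both genotypes. In control mice the order of mean normalized counts per kb of exon was Gpx4 (5671 ± 733.5), Gpx1 (4104 ± 567), Slc3a2 (531.3 ± 244.5), Gsr (305.5 ± 114.2), Gclm (284.2 ± 41.1), Gclc (250.8 ± 78.8), Gss (142.2 ± 66.9), Slc1a1 (55.9 ± 33.9) and Slc7a11 (3.83 ± 2.71, SD, n = 8). The 8 neighbouring pairs were compared within control mice by two-sided exact sign-flip tests, whose smallest p is 0.0078, with adjustment over the 8 pairs. With total exon length, Gpx4 and Gpx1, Gpx1 and Slc3a2, Gclc and Gss, and Gss and Slc1a1 differed. These are 4 of the 7 pairs without Slc7a11, and the direction for Gclc and Gss depends on the length used. The middle of the order did not separate, as Slc3a2 and Gsr had an exact adjusted p = 0.0521, Gsr and Gclm 0.969, and Gclm and Gclc 0.241. Slc1a1 exceeded Slc7a11 in 8 of 8 control mice, a description without a test because Slc7a11 was selected on its level in these mice.

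In MCU-KO mice Slc7a11 reached 53.4 ± 11.1 normalized counts per kb (37.6 to 69.1) and still had the lowest mean, next to Slc1a1 at 78.4 ± 41.4 (19.4 to 144.8, SD, n = 8 each). The ranges overlapped, Slc7a11 stood above Slc1a1 in MCU-KO mouse 7, and the order in MCU-KO mice was not tested. Gclm took the fourth place at 431 ± 99.0 per kb, after Slc3a2 at 523.8 ± 96.5. When the longest coding transcript replaced the total exon length, 3 genes changed place in the control order. The length of Gss fell from 5915 to 1963 bases and that of Gclc from 3766 to 3423. Gss then stood above Gclc in mean level, so the direction of that difference depends on the length used.

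**Figure D4:**
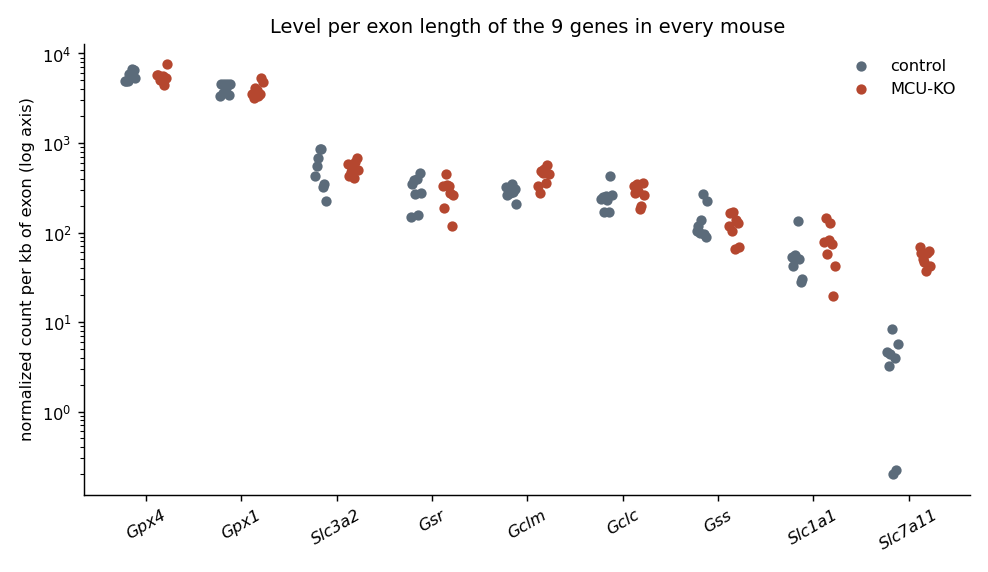
Normalized counts per kb of exon on a log axis for the 9 genes, ordered by their mean in control mice, with 1 point per mouse (8 control, 8 MCU-KO). Slc7a11 lies at 0.199 to 8.32 in control and at 37.6 to 69.1 in MCU-KO mice, and its mean is the lowest of the 9 in both.

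Across mice of one genotype, no relation between Slc7a11 and the other genes was resolved. In all, 20 relations of log2 CPM were computed over 8 mice each, and none had an unadjusted permutation p under 0.05. The lowest adjusted p was 0.555 for Pearson's r and 0.756 for Spearman's rho (exact over 40320 pairings). Slc7a11 and Slc3a2 in MCU-KO mice had r = 0.651 and rho = 0.714 (exact p = 0.0833 for r, n = 8), and r = 0.476 without mice 5 and 8, which were farthest from the median of Slc7a11. Slc7a11 and Gclm in MCU-KO mice had r = −0.483. Control mice formed separate clusters in Slc7a11, with mice 5 and 7 apart, and among the other 6 mice r was 0.214 with Slc3a2 and −0.197 with Gclm.

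The genes whose log2 CPM followed Slc7a11 most closely over all 16 mice were Tmem242 (r = 0.934), Fam32a (0.896), Paip1 (0.860), Eno1b (0.855) and Hebp1 (0.855). These r values include the genotype difference, which all of these genes share with Slc7a11, and they are a description. After each genotype's mean was subtracted, the closest were Ell2 (0.913), Srsf11 (0.911), Nos3 (0.904), Tgfbr3 (0.903) and Gpr139 (0.885), and none of these passed the genotype threshold. Such r values are the highest picked from all genes tested, and they were not tested. Control mice 5 and 7, with 3 counts of Slc7a11 each, were among the 16 mice.

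The surrounding pathway showed no gene past the threshold. In 9 lists of other genes, 117 were in the tables and 97 were tested, none of them was called by edgeR, and 4 had an unadjusted p under 0.05 (4.12% against 4.41% of all genes tested). These 4 were Hagh, Tkt, Slc1a2 and Gstt2, the last a glutathione transferase (log2 fold change 0.89) named after its values were seen. DESeq2 called none of the 97 either. The log2 fold change was above 0 in 49 and below 0 in 48, with a median of 0.01. For 56 of the 97 the 95% interval lay within a 2-fold change in either direction.

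Among the genes that supply cysteine or consume it (such as Cdo1), 10 of 12 were tested, with a median log2 fold change of 0.10. The smallest p belonged to Mat2a, which makes S-adenosylmethionine (−0.24, 95% interval −0.55 to 0.06). Of the genes of glutathione breakdown 7 of 12 were tested, with a median of −0.15, and Ggct, which cleaves gamma-glutamyl dipeptides, led them (−0.27, 95% interval −0.68 to 0.14). Enzymes that use glutathione were the largest list, with 30 of 38 tested and a median of −0.03. In it Hagh, which returns glutathione in the glyoxalase pathway, was at 5702 normalized counts in control and 4597 in MCU-KO mice (log2 fold change −0.31, 95% interval −0.57 to −0.05). All 16 NADPH genes were tested, with a median of 0.03, and the pentose phosphate enzyme Tkt was at 5379 and 4680 (−0.20, 95% interval −0.40 to −0.00).

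Of the glutathione transporters 7 of 9 were tested, with a median of 0.07, and Abcc5 had the smallest p (−0.18, 95% interval −0.59 to 0.23). Of the 12 regulators 11 were tested, with a median of 0.05. Keap1, which holds NRF2 for degradation, was at 2072 and 2547 normalized counts (log2 fold change 0.30, 95% interval −0.00 to 0.60). Atf4 and Nfe2l2 (the gene of NRF2), named here after their values were seen because of the motifs, had log2 fold changes of 0.05 (95% interval −0.18 to 0.29) and −0.75 (−3.25 to 1.76), and Nfe2l2 was at 0 in 3 control mice. The 9 selenoprotein synthesis genes, on which both peroxidases depend, were all tested and had a median of −0.00, with Eefsec lowest in p (−0.49, 95% interval −1.03 to 0.04). Of the other glutamate transporters 3 of 4 were tested, with a median of 0.31, and the astrocyte transporter Slc1a2 was at 6283 and 7784 (log2 fold change 0.31, 95% interval 0.01 to 0.61), and it is also one of the astrocyte markers.

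**Figure D5:**
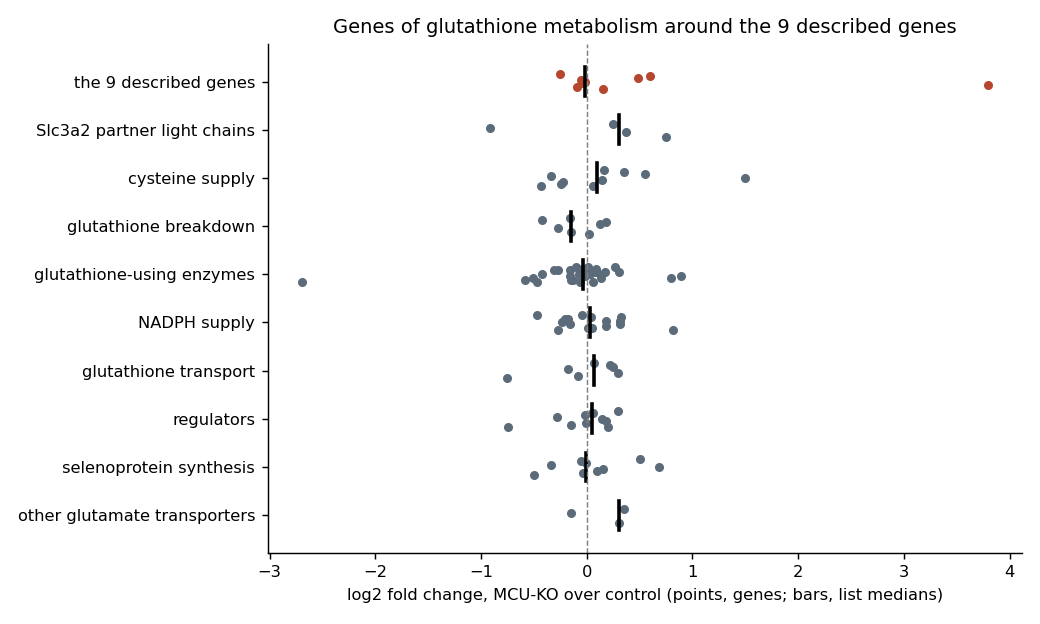
Log2 fold change, MCU-KO over control, of the tested genes in 9 lists around glutathione metabolism, with a grey-blue point per gene, a black bar at each list's median and the 9 genes above in red. The medians of the 9 lists lie between −0.15 and 0.31, and none of the 97 genes passed the edgeR threshold.

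Genes beside Slc7a11 and Gclm on chromosome 3 did not pass the threshold. Pcdh18, 135 kb from Slc7a11, had a log2 fold change of 0.11 (95% interval −0.82 to 1.04), and Noct, 781 kb away on the other side, 0.23 (−0.25 to 0.71). Beside Gclm, Abcd3 at 430 kb had −0.17 (−0.60 to 0.25) and Dnttip2 at 3.66 kb had −0.45 (−0.97 to 0.07). Of the 50-base stretches of Slc7a11 transcripts 1.47% occur in another gene, against 4.58% for Gclm and 3.51% for Slc3a2. Those of Slc7a11 occur in Tuba1a among others, and those of Gclm in Ppia among others. Gclm also shares 296 exon bases with Gm17494 on the opposite strand and 244 with Gm6061 on its own strand, so that its counts are less certain.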

How the data were processed

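RNA bound to RiboTag was measured in 8 control and 8 MCU-KO mice, with groups taken from the labels. Per the labels and methods, the authors trimmed the reads, mapped them with STAR on mm10 and tallied reads of each gene with HTSeq, and they deposited whole-number counts without normalization. Tool versions, strand setting and Ensembl release are not given in the sources used here. Symbols came from GENCODE M21 on GRCm38 (24942 of 25006 identifiers) and promoters from RefSeq on GRCm38.p6.

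Counts were fitted with edgeR 4.0.16 in R 4.3.3 (filterByExpr, TMM, quasi-likelihood test, Benjamini-Hochberg adjustment over 12390 genes, threshold 0.05). Normalized counts are counts divided by DESeq2 1.42.0 size factors. Log2 CPM used a prior count of 2 and ratios a pseudocount of 1. Exact permutation tests ran over 12870 divisions of the mice, and sign-flip tests over 256 patterns, in Python 3.11.15 with scipy 1.17.1. On simulated counts the fit called 14% of genes changed 1.5-fold, 36% at 2-fold, 60% at 4-fold and 84% at 8-fold (50 genes each). Of unchanged genes it called 0.0246%. A gene that did not pass the threshold may therefore still differ between genotypes.

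The members and lists were chosen with earlier results of these data known. Named from each list are its calls or, without any, the lowest p, and exceptions are marked. Alternatives were DESeq2, limma 3.58.1, other normalizations and filters, covariates, a block for the mouse number and the omission of each mouse. The labels give each mouse as a separate animal.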

Additional observations from a re-analysis of the deposited data

Results flagged for a closer look

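Within each genotype the highest and the lowest mouse of each of the 9 genes were compared with the remaining mice, as the gap to the nearest mouse over the whole range. In 3 of 18 groups this exceeded Dixon's 95% critical value for 8 mice, where chance would give 0.9. Gclc stood at 1595 normalized counts in control mouse 7 (gap 0.637 of the range). Slc1a1 stood at 1119 in control mouse 5 (0.743 of the range). Gpx4 stood at 12989 in MCU-KO mouse 8 (0.568 of the range), which was also the library with the lowest total count.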

How the results depend on the processing

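Of 148 values recomputed under alternatives, 131 kept their direction and side of the threshold (counts, within 1.5 times). Of the rest, 9 counts moved further, the log2 fold change of Gclm newly passed, and 7 log2 fold changes that did not pass took the other sign. With DESeq2, 90 genes passed the threshold in place of 22 (53 higher and 37 lower, all 22 among them), and 2 of the 9 genes, Slc7a11 and Gclm (0.60). The replicate block gave 14 genes (7 higher and 7 lower), all among the 22, and the same-numbered mice did not deviate together (correlations −0.06 to 0.03), so the mice share only a number. With at least 10 counts required in every mouse, Slc7a11 was not tested and 0 of the 9 genes passed. With limma-voom the log2 fold change of Slc7a11 was 4.50. Slc3a2 turned to 0.079 with limma-voom, 0.10 with the replicate block and 0.013 with Xist as a covariate, and Gpx4 to 0.041 with the astrocyte covariate. Without control mice 5 and 7, a choice made after seeing the data, Slc7a11 was at 3.40, with 23 genes and 1 of the 9 past the threshold, and Slc3a2 turned to 0.053, Gsr to 0.12 and Gpx4 to 0.029.

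When each mouse was left out in turn, 18 to 24 genes, 1 to 2 of the 9 genes and 0 other pathway genes passed, the log2 fold change of Slc7a11 was 3.62 to 4.06 (adjusted p = 1.9e-04 to 0.0028), and 4 to 6 of the 8 neighbouring pairs differed, that with Slc7a11 included. Gclm passed without MCU-KO mouse 2 (0.67), and its adjusted p over the omissions was 0.0441 to 0.481. Slc3a2 ranged from −0.13 to 0.12 and was above 0 without control mouse 3, 4 or 5 or MCU-KO mouse 2, 3 or 5. Gpx4 ranged from −0.10 to 0.013 and was above 0 without control mouse 6 or 7 or MCU-KO mouse 6. Gsr ranged from −0.22 to 0.022 and was above 0 without mouse 7 of either genotype. Slc1a1 ranged from 0.30 to 0.82, Gss from −0.34 to −0.06 and Gclc from 0.09 to 0.31. Slc7a11 reached the limit of detection of 3 counts in control mice 5 and 7. The cause of these changes was not tested.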
